A study of Mus musculus with 8 samples.

Results

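Mitochondrial fusion depends on OPA1, a dynamin-related GTPase of the inner membrane, and on a small set of proteases and scaffold proteins that cut or hold it. The RNA of *Opa1* and of 8 partner genes was followed in the cochlea of WT mice and of *Opa1*+/- mice. The 9 genes were chosen by symbol, from what their proteins are known to do to OPA1, and each is listed once among the 47628 named entries of the count tables. They are *Opa1*, the proteases *Oma1*, *Yme1l1*, *Afg3l2*, *Spg7* and *Parl*, and the scaffolds *Phb*, *Phb2* and *Stoml2*. The question was whether any partner RNA rises where *Opa1* RNA is reduced.

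Cochlear RNA came from 4 WT mice (labelled WT_4, WT_5, WT_6 and WT_8) and from 4 *Opa1*+/- mice (labelled Het_2, Het_7, Het_484 and Het_491), all untreated littermates aged 21 days. The *Opa1*+/- mice carried 1 knock-in allele with the human OPA1 delTTAG deletion, on a mixed background of C57BL/6J and 129Sv/Pas. This allele is present in every cell, and mice with 2 mutant alleles die before birth, so a complete loss could not be examined. The study used both sexes, but the sex of each of these mice is not given. The libraries held the RNA of whole cochleae, in which fewer cells of a type and less RNA per cell cannot be told apart.

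OPA1 is made as long forms anchored in the inner membrane, and part of these are cut into short soluble forms. YME1L1 makes part of the cuts in healthy mitochondria, whereas OMA1 is switched on when the membrane potential falls or the organelle is stressed, and then cuts the remaining long forms. The balance of long and short OPA1 sets how readily inner membranes fuse and how tight the cristae are. In man, loss of 1 functional *OPA1* copy is the main cause of dominant optic atrophy, in which hearing loss is the most frequent additional sign.

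The deletion of the knock-in allele is shown because it defines the only difference between the groups that the labels give. On GRCm38 the deleted bases lie on the plus strand at chr16:29630084-29630087, where exon 27 begins in a transcript of 29 exons. They are coding positions 2708 to 2711 (A of the ATG being 1) in a coding sequence of 2880 bases without its stop codon. The first line below gives coding positions 2675 to 2744 of the reference with the deleted bases in capitals, and the second line gives the same stretch after the deletion, with the stop codon that the shifted frame meets in capitals.
reference: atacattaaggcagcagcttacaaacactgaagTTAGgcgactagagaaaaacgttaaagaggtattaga
delTTAG: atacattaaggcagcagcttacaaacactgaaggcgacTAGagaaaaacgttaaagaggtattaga
The counts are summed over a gene and do not separate reads of the WT allele from those of the mutant allele.

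*Opa1* RNA was lower in every *Opa1*+/- cochlea than in any WT cochlea. Levels are given as CPM, the counts of a gene scaled to a common library size with edgeR's TMM factors. WT_4, WT_5, WT_6 and WT_8 had 118.7, 125.9, 111.7 and 122.4 CPM of *Opa1*. Het_2, Het_7, Het_484 and Het_491 had 63.5, 68.4, 60.4 and 70.02 CPM. The groups were separated by a wide gap, and the spread within each group was small, with a coefficient of variation of 5.09% in WT and 6.74% in *Opa1*+/- mice. This was a log2 fold change of -0.87 (SE 0.0677, 95% interval -1.02 to -0.72), with an adjusted p of 0.00515 (edgeR, quasi-likelihood test, adjusted over all genes by Benjamini and Hochberg). *Opa1* had the lowest p of all 19366 genes tested. Only 0.0258% of these genes passed the adjusted threshold of 0.05, 5 in all, and *Opa1* was the single called gene that was lower (background share called lower 0.00516%, called higher 0.0207%). The mean of the *Opa1*+/- mice was 54.8% of the WT mean (exact two-sided permutation test, p = 0.0286, the smallest value that 4 against 4 mice can give). The fold change remained between -0.90 and -0.83 when 1 mouse was left out. Without Het_2, its adjusted p was 0.0704 from edgeR at a log2 fold change of -0.85, and *Opa1* passed in the 7 other comparisons of this kind.

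**Figure D1:**
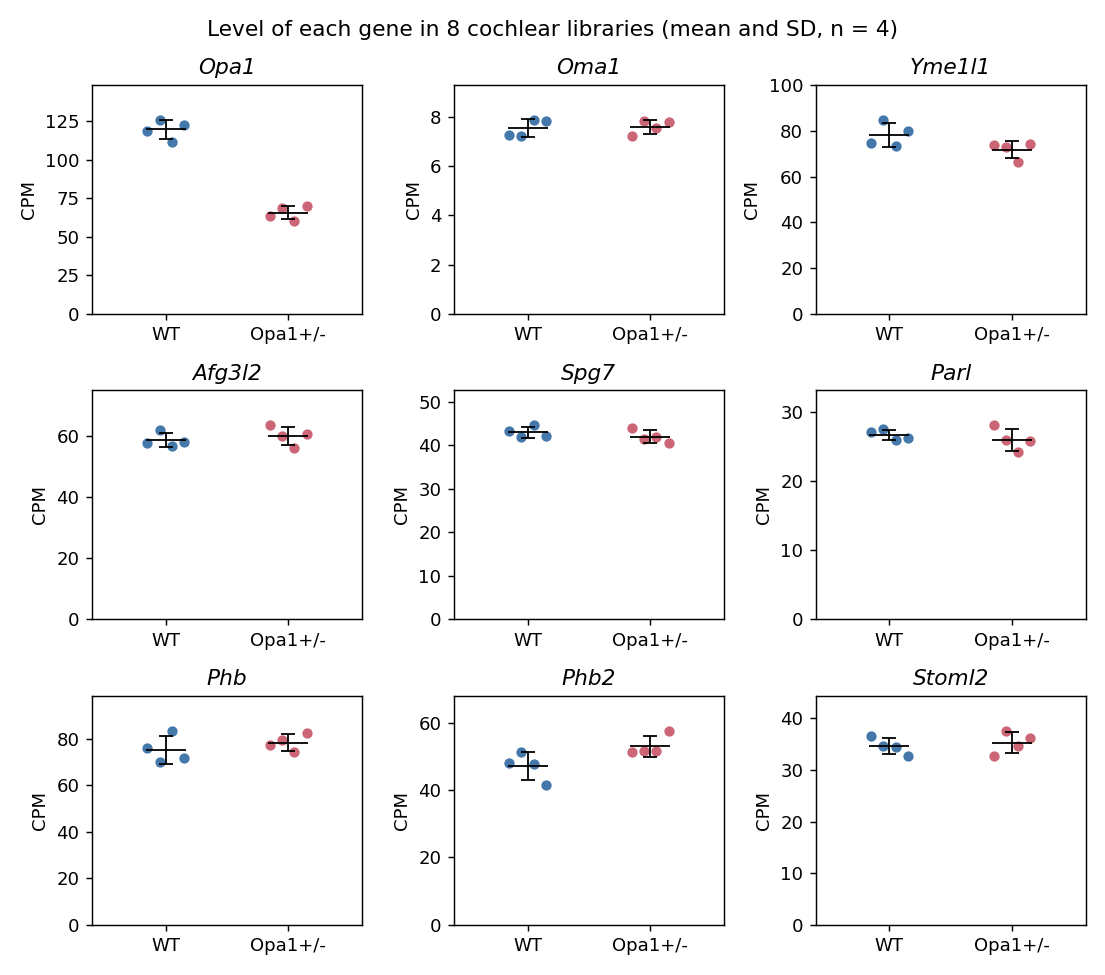
Level of *Opa1* and its 8 partners in each cochlear library, in CPM on a linear axis that starts at 0 (points: 4 WT and 4 *Opa1*+/- mice; long bar: mean; error bar: SD). *Opa1* lies between 111.7 and 125.9 CPM in WT and between 60.4 and 70.02 CPM in *Opa1*+/- mice, whereas the groups of each partner overlap.

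None of the 8 partners passed the adjusted threshold (0 of 8 by edgeR and 0 of 8 by DESeq2's Wald test). Without adjustment, 1 partner, *Phb2*, had a p under 0.05 from edgeR and 0 had one from DESeq2, against a background of 6.72% of all genes tested by edgeR (3.51% higher and 3.22% lower) and 5.76% by DESeq2. *Phb2* was higher in *Opa1*+/- mice. In each of the 8 partners the groups of mice overlapped, against 4.31% of all genes tested whose groups did not (1.98% with all *Opa1*+/- mice above and 2.33% with all below). The partners' log2 fold changes ran from -0.12 to 0.17 with a median of 0.018, 5 being positive and 3 negative, and the median over all genes was 3.95e-04. Their median size, regardless of sign, was 0.036 on the log2 scale, compared with 0.081 over the 10737 genes whose mean level lay between those of *Oma1* and *Opa1*. The median standard error of those genes was 0.0923, near the largest of the partners'. All 9 genes had passed the count minimum of a mean of 10 normalized counts.

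The 95% intervals give how large a rise of each RNA these 8 mice allow, and they were not adjusted for the number of partners. Standard errors (SE) of the log2 fold changes ran from 0.0504 for *Spg7* to 0.0931 for *Oma1*. The upper end of the 95% interval was a rise of 26.1% for *Phb2* and of 16.3% for *Oma1*. For the other partners it ran from 1.80% for *Yme1l1* to 15.9% for *Phb*. Summed over the 8 partners, WT_4, WT_5, WT_6 and WT_8 had 370.8, 380.1, 374.3 and 360.1 CPM, and Het_2, Het_7, Het_484 and Het_491 had 378.2, 376.7, 357.1 and 385.5 CPM. These sums overlapped, with means of 371.3 ± 8.40 and 374.4 ± 12.1 CPM (SD, n = 4 each).

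**Figure D2:**
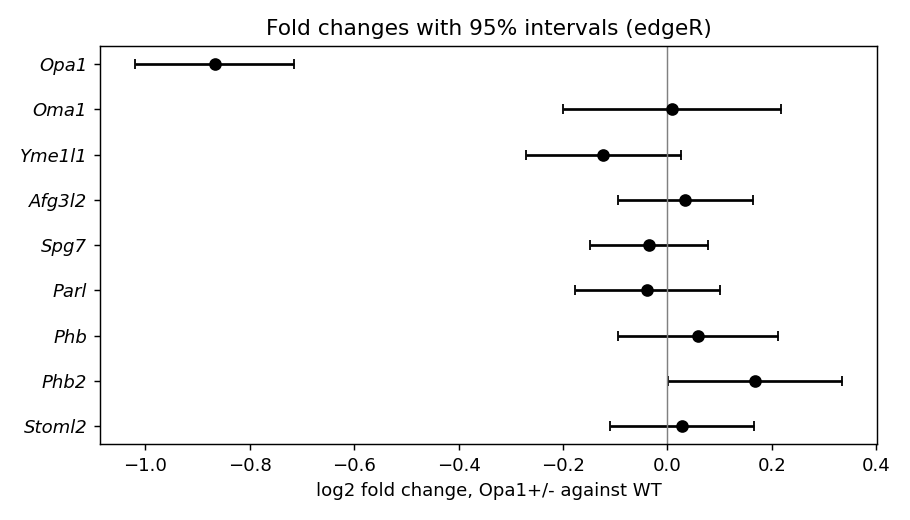
Log2 fold change of each gene in *Opa1*+/- against WT cochleae (point) with its 95% interval from edgeR's quasi-likelihood fit (bar), n = 4 mice per group. The interval of *Opa1* runs from -1.02 to -0.72, and those of the partners lie close to 0, the one of *Phb2* beginning just above it.

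Among the proteases that cut OPA1, *Oma1* (chromosome 4, 103313812 to 103371868 of GRCm38) encodes the stress-activated metalloprotease. It was the rarest of the 9 RNAs, with 122 to 160 counts per mouse. WT_4, WT_5, WT_6 and WT_8 had 7.25, 7.23, 7.89 and 7.83 CPM, and Het_2, Het_7, Het_484 and Het_491 had 7.21, 7.82, 7.55 and 7.79 CPM. The means were nearly equal, at a log2 fold change of 0.0087 (standard error 0.0931, adjusted p = 0.988 from edgeR). Its 95% interval ran from -13.0% to 16.3%. Counting error alone gives a coefficient of variation of 8.57% at this depth, above the 4.77% and 3.69% seen among WT and *Opa1*+/- mice.

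*Yme1l1* (chromosome 2, 23156369 to 23199260) encodes the ATP-dependent protease that faces the intermembrane space and cuts OPA1 in resting cells. In WT_4, WT_5, WT_6 and WT_8 it reached 74.7, 84.8, 73.2 and 80.0 CPM. In Het_2, Het_7, Het_484 and Het_491 the values were 73.8, 72.8, 66.5 and 74.1 CPM. Het_484 was the lowest, and the upper values of the *Opa1*+/- group reached into the lower values of the WT group. Its log2 fold change lay below 0, at -0.12 (standard error 0.0659, adjusted p = 0.762 from edgeR). With 1 mouse left out it ran from -0.15 to -0.081, the latter without WT_5, the highest WT mouse.

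*Afg3l2* (chromosome 18, 67404764 to 67449172) and *Spg7* (chromosome 8, 123062942 to 123097760) encode the subunits of the m-AAA protease, which faces the matrix. The m-AAA protease is not needed for the normal cuts of OPA1, but OMA1 becomes active when it is missing. *SPG7*, or paraplegin, is mutated in a hereditary spastic paraplegia that can come with optic atrophy, and dominant *AFG3L2* mutations cause ataxia or optic atrophy. *Afg3l2* reached 57.8, 62.1, 56.8 and 58.1 CPM in WT_4, WT_5, WT_6 and WT_8 and 63.6, 60.0, 56.1 and 60.7 CPM in Het_2, Het_7, Het_484 and Het_491. Both groups covered much the same range, and the log2 fold change came to 0.035 (SE 0.0573, adjusted p = 0.927 from edgeR). *Spg7* had 43.3, 42.04, 44.6 and 42.1 CPM in WT mice against 44.0, 41.5, 41.9 and 40.5 CPM in *Opa1*+/- mice, in the same order of animals. Its log2 fold change of -0.034 had the smallest standard error of the 9 genes (standard error 0.0504, adjusted p = 0.917 from edgeR). *Gm20388*, a gene model whose span holds *Spg7* without sharing exons, took 678 to 1001 counts, and *Spg7* summed with it had a log2 fold change of -0.033. The ratio of *Afg3l2* to *Spg7* RNA per kilobase of annotated exon was 0.625 ± 0.0394 in WT and 0.655 ± 0.0304 in *Opa1*+/- mice (SD, n = 4 each), and these ratios overlapped between the groups. Which of the 2 RNAs is the more abundant depends on the length used. Over the longest coding transcript, *Afg3l2* had 18.96 and *Spg7* 14.85 CPM per kb in WT.

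*Parl* (chromosome 16, 20279818 to 20302387) encodes the rhomboid protease of the inner membrane, known for cutting PINK1 and PGAM5. It is the only partner on the chromosome of *Opa1*, and starts 9.30 Mb before it. The level was 27.1, 27.5, 26.0 and 26.2 CPM in WT_4, WT_5, WT_6 and WT_8, and 28.1, 26.0, 24.2 and 25.8 CPM in Het_2, Het_7, Het_484 and Het_491. The highest and the lowest value both came from *Opa1*+/- mice. Its log2 fold change came to -0.038 (standard error 0.0620, adjusted p = 0.925 from edgeR).

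Among the scaffolds, the prohibitins PHB and PHB2 assemble alternately into ring complexes in the inner membrane, and loss of either destabilises the other protein and the long forms of OPA1. *Phb2* (chromosome 6, 124712336 to 124716950) was the partner with the lowest p. It had 48.1, 51.5, 47.8 and 41.6 CPM in WT_4, WT_5, WT_6 and WT_8, and 51.4, 51.6, 51.7 and 57.7 CPM in Het_2, Het_7, Het_484 and Het_491. WT_5 lay within the range of the *Opa1*+/- mice, and the difference of the means rested in part on WT_8, the lowest, and on Het_491, the highest. In edgeR its log2 fold change was 0.17 (SE 0.0743), with an unadjusted p of 0.0482 and an adjusted p of 0.736, whereas DESeq2 gave an unadjusted p of 0.0613 and an adjusted p of 0.884. The exact two-sided permutation test over mice gave p = 0.0571. Without WT_8 the log2 fold change was 0.11, and without Het_491 it was 0.12 (adjusted p = 0.998 and 0.901 from edgeR). Without WT_5, the only WT mouse within the *Opa1*+/- range, it was 0.21 (adjusted p = 0.872 from edgeR). With 1 mouse left out, the log2 fold change of *Phb2* ran from 0.11 to 0.21. A snoRNA, *Gm23547*, shares 155 bases with the *Phb2* exons on the same strand and took at most 3 counts per library.

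*Phb* (chromosome 11, 95666957 to 95680773) had 76.1, 70.2, 83.5 and 71.6 CPM in WT_4, WT_5, WT_6 and WT_8. It had 77.3, 79.4, 74.4 and 82.7 CPM in Het_2, Het_7, Het_484 and Het_491. The highest value belonged to WT_6, and the groups overlapped, at a log2 fold change of 0.059 (SE 0.0686, adjusted p = 0.891 from edgeR). With 1 mouse left out it ran from 0.026 (without WT_5) to 0.11 (without WT_6). A processed pseudogene on chromosome 15, *Gm7666*, matches the *Phb* transcript over 819 bases at 99.9% identity and took between 378 and 492 counts per mouse, so reads of the *Phb* mRNA may be split between entries. The *Phb* transcript also matches an annotated *Fyb* transcript over 339 bases at 100% identity (409 to 575 counts per mouse) and *Gm7781* over 740 bases at 95% (16 to 29 counts), and these were not summed with it. *Gm7666* had 22.2 ± 2.02 CPM in WT versus 25.1 ± 1.01 CPM in the *Opa1*+/- cochleae (SD, n = 4 each, log2 fold change 0.18, adjusted p = 0.732 from edgeR). With *Phb* and *Gm7666* summed, the log2 fold change came to 0.086 (SE 0.0697, adjusted p = 0.830 from edgeR). The subunit ratio of *Phb2* to *Phb* per kilobase of exon was 0.475 ± 0.0560 in WT and 0.511 ± 0.0173 in *Opa1*+/- mice (SD, n = 4 each), and the groups overlapped. Its size depends on the length used.

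*Stoml2* (chromosome 4, 43027690 to 43031710) encodes a stomatin-like protein that binds prohibitins and cardiolipin and holds YME1L1 and PARL in a common assembly. WT_4, WT_5, WT_6 and WT_8 had 36.6, 34.7, 34.5 and 32.7 CPM, and Het_2, Het_7, Het_484 and Het_491 had 32.8, 37.6, 34.7 and 36.2 CPM. The values were interleaved, and the log2 fold change came to 0.028 (SE 0.0616, adjusted p = 0.944 from edgeR). On the opposite strand a lincRNA, *Gm26643*, shares 502 bases with the *Stoml2* exons, 16.6% of their length, and took at most 1 count in any library.

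Since *Opa1* fell and its partners did not pass the test in either direction, the proportions of the RNAs differed between the groups. Per kilobase of annotated exon, the ratio of *Opa1* to *Yme1l1* RNA was 1.56 ± 0.0441 in WT and 0.928 ± 0.0395 in *Opa1*+/- mice (SD, n = 4 each). The ratio of *Opa1* to *Oma1* was 4.33 ± 0.373 and 2.35 ± 0.119, and that of *Opa1* to *Phb2* was 1.20 ± 0.127 and 0.583 ± 0.0308, in the same order. The size of such ratios depends on the length used. Over the longest coding transcript, *Opa1* had 19.2 and *Phb2* 35.8 CPM per kb in WT. In all 3 ratios every *Opa1*+/- mouse lay below every WT mouse, which follows from the fall of *Opa1* itself. Between partners the ratio of *Oma1* to *Yme1l1*, the proteases of stress and of rest, was 0.362 ± 0.0344 in WT and 0.396 ± 0.0244 in *Opa1*+/- mice (SD, n = 4 each), with overlapping groups. *Opa1* accounted for 24.4 ± 1.03% of the summed CPM of the 9 genes in WT and for 14.9 ± 0.546% in *Opa1*+/- mice (SD, n = 4 each). These CPM were not divided by length, so the size of this share depends on the lengths of the genes.

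Levels of different genes can be compared only per length. Divided by the annotated exonic length of each gene, *Phb* was the most abundant in WT, at 26.9 ± 2.13 CPM per kb, followed by *Opa1* at 15.2 ± 0.773 and *Phb2* at 12.7 ± 1.11 CPM per kb. *Stoml2*, *Yme1l1*, *Spg7*, *Parl* and *Afg3l2* came next, from 11.5 down to 5.94 CPM per kb, and *Oma1* was last at 3.52 ± 0.168 CPM per kb (SD, n = 4). In this order *Phb2* and *Stoml2* overlapped between mice, as did *Yme1l1* and *Spg7*, and the other neighbours did not. In *Opa1*+/- mice *Opa1* stood at 8.33 ± 0.561 CPM per kb (SD, n = 4), sixth of the 9 genes, and overlapped with *Yme1l1*. The order of the middle genes depends on the length used. Over the longest coding transcript of each gene, *Opa1* had rank 4 in WT and rank 8 in *Opa1*+/- mice, while *Phb* remained first and *Oma1* last in both groups.

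**Figure D3:**
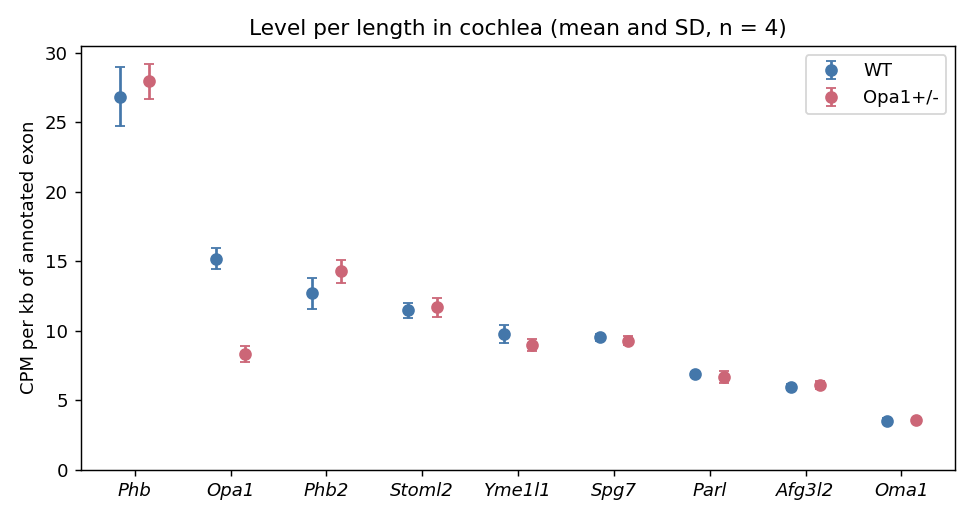
Level per kilobase of annotated exon of the 9 genes in WT and *Opa1*+/- cochleae (points: mean; bars: SD; n = 4 mice per group), ordered by the WT level. *Phb* is highest and *Oma1* lowest in both groups, and *Opa1* goes from 15.2 to 8.33 CPM per kb.

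Genes of related pathways were examined in 6 lists, of which 74 genes were tested. None passed the adjusted threshold (0 by edgeR and 0 by DESeq2), and 7 (9.46%) had an unadjusted p under 0.05 from edgeR, 6 higher and 1 lower, against 6.72% of all genes. By DESeq2, 11 had an unadjusted p under 0.05, against 5.76% of all genes. In 7 (9.46%) the groups did not overlap, 4 being higher and 3 lower, against 4.31% of all genes. Of other inner membrane and matrix proteases and their partners, 8 of 13 were positive, with a median log2 fold change of 0.012. Their summed level overlapped, from 608.1 to 644.4 CPM in WT and from 628.3 to 684.6 CPM in *Opa1*+/- mice. The lowest p in that list were those of *Lonp1* and *Clpp*, subunits of the proteolytic machinery of the matrix. *Lonp1* had 48.6 ± 2.11 CPM in WT versus 54.1 ± 3.44 CPM in the *Opa1*+/- cochleae (SD, n = 4 each), a log2 fold change of 0.15 (adjusted p = 0.722 from edgeR). *Clpp* had 35.7 ± 3.03 and 39.0 ± 0.652 CPM (adjusted p = 0.758 from edgeR). For the m-AAA and i-AAA proteases themselves, *Afg3l2*, *Spg7* and *Yme1l1*, the corresponding log2 fold changes were 0.035, -0.034 and -0.12.

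Known substrates of the proteases had a median log2 fold change of 0.038, with 7 of 9 positive. Their summed level overlapped, from 531.7 to 570.2 CPM in WT and from 559.8 to 576.3 CPM in *Opa1*+/- mice. *Smdt1*, an essential subunit of the calcium uniporter whose protein is cleared by the m-AAA protease, had 47.3 ± 4.44 CPM in WT versus 53.2 ± 2.04 CPM in the *Opa1*+/- cochleae (SD, n = 4 each, log2 fold change 0.17, unadjusted p = 0.0413, adjusted p = 0.728 from edgeR). *Dele1*, listed under its older symbol *0610009O20Rik*, encodes the OMA1 substrate that carries mitochondrial stress to the kinase HRI in the cytosol. It had 32.3 ± 1.93 CPM in WT versus 34.3 ± 1.30 CPM in the *Opa1*+/- cochleae (SD, n = 4 each, adjusted p = 0.796 from edgeR).

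Of the tested genes of the integrated stress response, 13 of 14 had a positive log2 fold change, with a median of 0.13 against 3.95e-04 over all genes. The exception was *Eif2ak1*, the gene of HRI, at -0.0063 (adjusted p = 0.985 from edgeR). The summed level of the list ran from 542.8 to 557.4 CPM in WT and from 579.1 to 611.1 CPM in *Opa1*+/- mice, without overlap. Erythroid markers (7 of 7 positive, median 0.57) and Schwann cell markers (6 of 6 positive, median 0.22) had positive log2 fold changes as well, and their part in this list was not tested. None of the 14 stress response genes passed the adjusted threshold. Of them, 4 had an unadjusted p under 0.05 from edgeR and 4 from DESeq2, all of them higher. Over all genes tested these shares were 6.72% by edgeR, 3.51% for higher genes alone, and 5.76% by DESeq2. In 3 genes, *Atf5*, *Ddit3* and *Chac1*, every *Opa1*+/- mouse was above every WT mouse, against 1.98% of all genes tested. *Atf5*, a transcription factor tied to mitochondrial stress, had 36.4, 45.8, 39.0 and 38.8 CPM in WT_4, WT_5, WT_6 and WT_8 and 48.8, 53.6, 47.8 and 50.4 CPM in Het_2, Het_7, Het_484 and Het_491 (log2 fold change 0.33, standard error 0.0769, adjusted p = 0.722 from edgeR). *Ddit3*, which encodes the factor CHOP, had 30.1, 26.1, 28.0 and 27.6 CPM and 33.9, 34.7, 39.2 and 31.7 CPM, respectively (log2 fold change 0.32, standard error 0.0769, adjusted p = 0.722 from edgeR). For *Oma1* itself, the log2 fold change of 0.0087 was smaller than its standard error.

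Genes of mitochondrial fusion and fission had a median log2 fold change of -0.083, 8 of 10 being negative. Their summed level ran from 705.5 to 726.8 CPM in WT and from 661.4 to 699.1 CPM in *Opa1*+/- mice, without overlap. Among the pathway lists, only this one and the integrated stress response had sums without overlap. How often sums of other gene lists separate was not tested. *Gdap1*, an outer membrane fission factor mutated in Charcot-Marie-Tooth neuropathy, had 84.97 ± 5.93 CPM in WT versus 75.4 ± 4.64 CPM in the *Opa1*+/- cochleae (SD, n = 4 each, unadjusted p = 0.0354, adjusted p = 0.728 from edgeR). *Slc25a46*, an outer membrane protein that contacts OPA1 and MICOS and is mutated in optic atrophy with neuropathy, had 74.9, 73.2, 71.6 and 77.7 CPM in WT_4, WT_5, WT_6 and WT_8. Its values in Het_2, Het_7, Het_484 and Het_491 were 68.8, 67.4, 67.4 and 71.4 CPM, all below the WT mice (log2 fold change -0.11, adjusted p = 0.741 from edgeR). The same separation was seen in *Mff*, a receptor for the fission GTPase DRP1, at 108.5 ± 1.45 and 102.97 ± 3.37 CPM (SD, n = 4 each, log2 fold change -0.08, adjusted p = 0.795 from edgeR). These were 2 of 10 genes, against 2.33% of all genes tested. Genes of the MICOS complex, which builds cristae junctions with OPA1, had a median of 0.095, and 7 of 8 were positive. Their summed level overlapped, from 373.4 to 427.8 CPM in WT and from 412.9 to 434.7 CPM in *Opa1*+/- mice. The lowest p there were those of *Micos13* (listed as *2410015M20Rik*) at 26.6 ± 1.89 and 29.5 ± 1.49 CPM and of *Apool* at 8.13 ± 2.07 and 9.72 ± 0.484 CPM (SD, n = 4 each, adjusted p = 0.749 and 0.787 from edgeR).

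**Figure D4:**
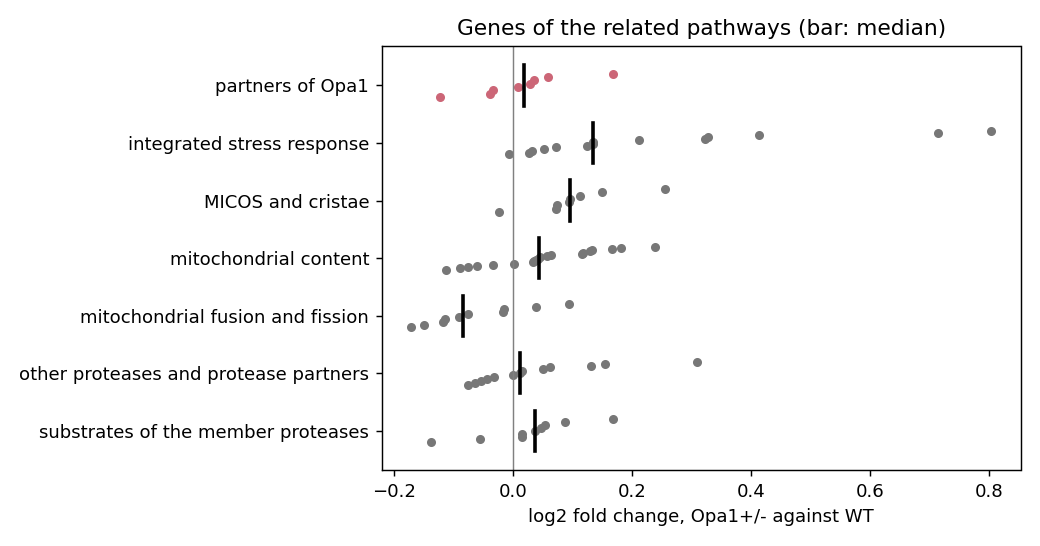
Log2 fold changes in *Opa1*+/- against WT cochleae of the 8 partners of *Opa1* and of the genes tested in each of 6 related lists (points: genes; black bar: median of the list). Integrated stress response genes have a median of 0.13, and partners of *Opa1* have a median of 0.018.

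To set the partners beside other nuclear genes for mitochondrial proteins, 20 nuclear genes of the respiratory chain, citric acid cycle, import machinery, chaperones and porins were summed. They had 4809 ± 380 CPM in WT versus 5001 ± 199 CPM in the *Opa1*+/- cochleae (SD, n = 4 each), and 15 of 20 were positive with a median log2 fold change of 0.043. The sums overlapped, from 4500 to 5336 CPM in WT and from 4734 to 5215 CPM in *Opa1*+/- mice. The lowest p were those of *Mdh2*, with 286.3 ± 9.04 and 310.7 ± 9.48 CPM, and of *Tomm20*, with 121.9 ± 3.27 and 112.8 ± 3.52 CPM (SD, n = 4 each, adjusted p = 0.749 for both from edgeR). Scaled by this list instead of by all genes, the log2 fold change of *Opa1* was -0.93, that of *Yme1l1* was -0.18 and that of *Phb2* was 0.11 (adjusted p = 0.00668, 0.847 and 0.861 from edgeR). Under this scaling *Oma1*, *Afg3l2*, *Phb* and *Stoml2* had negative values, from -0.054 to -0.0050, so that their small positive values depend on the scaling. *Parl* and *Spg7* went from -0.038 and -0.034 to -0.099 and -0.096 (adjusted p = 0.880 and 0.883 from edgeR).

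The genes next to *Opa1* were examined because a knock-in allele brings flanking DNA of its strain of origin, on a mixed background. Of 33 genes listed in the tables that start within 2 Mb of the *Opa1* start on chromosome 16, 19 were tested and 0 passed the adjusted threshold by edgeR or DESeq2. With an unadjusted p under 0.05 there were 3 from edgeR and 4 from DESeq2, against 6.72% and 5.76% of all genes tested. In 2 the groups did not overlap, against 4.31% of all genes. Those with the lowest p from edgeR were *Acap2*, *Hrasls*, *Atp13a3* and *Hes1*. *Hrasls*, which starts at -369.6 kb from the *Opa1* start, had 8.45, 7.18, 9.08 and 7.30 CPM in WT_4, WT_5, WT_6 and WT_8 and 5.08, 7.07, 5.38 and 5.55 CPM in Het_2, Het_7, Het_484 and Het_491 (log2 fold change -0.47, adjusted p = 0.722 from edgeR). *Acap2*, 1513 kb after the *Opa1* start, had 41.6 ± 3.38 and 34.9 ± 1.79 CPM, and *Atp13a3* had 71.4 ± 7.99 and 59.3 ± 2.78 CPM (SD, n = 4 each, adjusted p = 0.722 for both from edgeR). *Hes1* had 12.6 ± 2.52 CPM in WT versus 15.2 ± 0.688 CPM in the *Opa1*+/- cochleae (SD, n = 4 each, adjusted p = 0.758 from edgeR). Strain differences next to *Opa1* and the lower *Opa1* dose cannot be told apart in these mice.

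The 5 genes whose pattern over the 8 mice was most like that of *Opa1* were sought among 13934 genes with a mean of at least 5 CPM. Likeness was the root mean square difference of log2(CPM + 0.5) values, each centred on the gene's mean. The closest were *Pcdhb14*, *Tes3-ps*, *Slc30a10*, *Gm13152* and *Hrasls*, at differences of 0.22 to 0.27 on the log2 scale. Their log2 fold changes ran from -0.54 to -0.38, smaller in size than that of *Opa1*, and all were low in abundance, with WT means of 7.64 to 10.1 CPM. The measure favours genes that are lower in *Opa1*+/- mice. Of the partners, *Yme1l1* came nearest, at rank 901 with a difference of 0.37, and *Phb2* was farthest, at rank 11422 with 0.53.

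The libraries held 15978051 to 20828030 counts on named genes. Hair cell, spiral ganglion, Schwann cell, strial and fibrocyte markers were all detected. Between the groups, summed markers of hair cells (234.1 to 342.5 CPM in WT, 265.0 to 285.6 CPM in *Opa1*+/- mice) and of spiral ganglion neurons (4229 to 4990 and 4306 to 5000 CPM) overlapped. The same held for Schwann cells (3109 to 4259 and 3744 to 5101 CPM), stria vascularis (581.7 to 1100 and 723.1 to 788.8 CPM) and fibrocytes (2893 to 4158 and 2995 to 3943 CPM). Erythroid markers ran from 7739 to 21425 CPM in WT and from 15040 to 25032 CPM in *Opa1*+/- mice, with 7 of 7 positive and a median log2 fold change of 0.57. Schwann cell markers were positive in 6 of 6, with a median of 0.22, and in 1 of them, *Egr2*, every *Opa1*+/- mouse was above every WT mouse (log2 fold change 0.34, unadjusted p = 0.00285, adjusted p = 0.722 from edgeR). Over all genes tested, 1.98% were separated in that direction and 3.51% were higher with an unadjusted p under 0.05. Stria vascularis markers were negative in 6 of 6, with a median of -0.16, and skeletal muscle markers in 5 of 5, with a median of -0.80. Hair cell markers were positive in 3 of 10, spiral ganglion neuron markers in 4 of 8, fibrocyte markers in 1 of 4, neutrophil and marrow markers in 4 of 8 and bone markers in 2 of 6. Neutrophil and marrow markers (421.6 to 1375 and 446.5 to 1148 CPM), bone markers (1067 to 1234 and 855.0 to 1294 CPM) and skeletal muscle markers (111.7 to 1334 and 11.8 to 511.0 CPM) overlapped as well. Their part in the values of the 9 genes and of the pathway lists, fusion and fission included, was not tested.

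**Figure D5:**
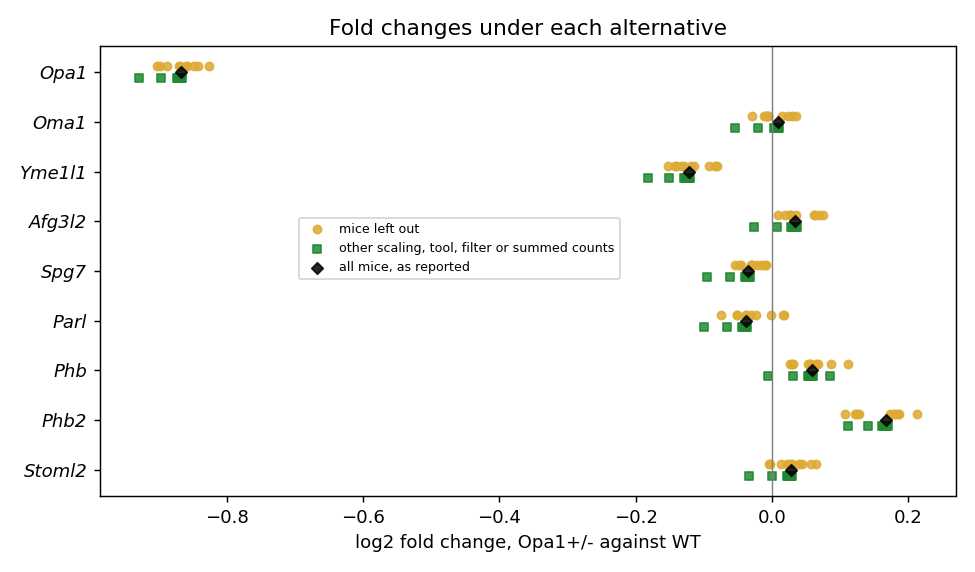
Log2 fold change of each gene with all mice as reported (black diamonds), with mice left out (yellow circles) and with another scaling, tool, filter or summed counts (green squares). *Opa1* stays between -0.93 and -0.83, whereas *Yme1l1* stays below 0 and *Phb2* above it, and *Oma1*, *Afg3l2*, *Parl*, *Phb* and *Stoml2* fall on both sides.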

How the data were processed

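CORALL libraries of cochlear RNA from 8 mice were read from both ends (80 nucleotides each). The authors trimmed adapters, mapped reads to GRCm38 with STAR, used molecular identifiers against amplification bias, and deposited raw counts per gene symbol, 1 table per mouse. The counting program and its use of strand are not given in the sources used here, so overlapping genes and near-identical copies are uncertain. The paper describes a single extraction procedure, TRI Reagent followed by NucleoSpin columns. The labels name alternative kits, and it is not stated which mice were extracted with which of them. Numbers instead of symbols name 15 of the 47643 entries (0.112% to 0.124% of counts), which were left out.

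Genes with a mean normalized count over 10 (19366) were compared without covariates by edgeR 4.0.16, quasi-likelihood test, TMM factors of 0.948 to 1.06 and Benjamini-Hochberg adjustment over all genes, the tool of the study, DESeq2 1.42.0, being an alternative. The standard error was taken as the size of the log2 fold change over the root of its F value, and 95% intervals use the moderated degrees of freedom. Single values were compared by exact permutation over 70 arrangements. Positions, exons and transcripts came from GENCODE vM21, which has 45236 of 47502 symbols, and shared sequence from blastn 2.17.0 (at least 95% identity over 100 bases). For 5 list genes older symbols were matched through RefSeq. The fit was tested on simulated data. Other alternatives were DESeq2 size factors, total counts, mitochondrially encoded genes left out of the library size, a list of nuclear genes for mitochondrial proteins as library size, robust estimation, 2 other filters, an adjusted threshold of 0.1 and mice left out. Sums with *Gm7666* or *Gm20388*, and the joint omission of WT_4 and both mice with 3-digit numbers (Het_484 and Het_491), were added after the data were seen.

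The genes and lists were chosen with earlier results of these data known. Named are all 9 genes, the 2 of each pathway list and 4 neighbours with the lowest p, any list gene called, and the 5 genes most like *Opa1*. *Chac1*, *Mff*, *Egr2*, *Fyb*, *Gm7781*, *Gm7666*, *Gm20388*, *Gm23547* and *Gm26643* were named after their values were seen. Fits were run in R 4.3.3, and figures were drawn with matplotlib 3.10.9 under Python 3.11.15.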

Additional observations from a re-analysis of the deposited data

Results flagged for a closer look

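In each group of 4 mice the highest and lowest values of the 9 genes were compared with the others by Dixon's test at the 95% level, 18 groups in all, of which chance flags about 1 in 20. It marked 2 values. *Yme1l1* in Het_484 was 66.5 CPM, against 72.8 to 74.1 CPM in the other *Opa1*+/- mice, a gap of 0.833 of the group's range. *Phb2* in Het_491 was 57.7 CPM, against 51.4 to 51.7 CPM in the others, a gap of 0.954 of the range. The log2 fold change of *Yme1l1* was -0.083 without Het_484, and that of *Phb2* was 0.12 without Het_491, neither past the adjusted threshold with or without the mouse.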

How the results depend on the processing

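No partner passed the adjusted threshold in any of the 146 partner comparisons under the alternatives. *Opa1* was lower in all 18 of its alternatives and called in 15. Its share of the WT level, computed under 14 of them, lay between 52.5% and 56.4%. It was not called without Het_2 (range with 1 mouse left out -0.90 to -0.83), without both mice with 3-digit numbers, Het_484 and Het_491 (-0.86, adjusted p = 0.26 from edgeR), or when WT_4 was omitted too (-0.87, 0.656). Fewer samples are compared in each. Log2 fold changes of partners that changed sign were all small. With total counts alone, *Oma1* was -0.021 and *Stoml2* -2.13e-05. Scaled by the mitochondrial list, *Afg3l2* was -0.025, *Oma1* -0.054, *Phb* -0.0050 and *Stoml2* -0.034. Without both 3-digit mice *Oma1* was -0.0052 and *Parl* 0.017, and with WT_4 omitted too -0.029 and 0.018. With 1 mouse left out, *Oma1* ran from -0.012 to 0.035 and *Stoml2* from -0.0038 to 0.066. The cause of these shifts was not tested. Over all genes, calls numbered 11 at an adjusted threshold of 0.1, 23 with DESeq2, 10 with robust estimation, 12 with no filter, 0 without both 3-digit mice and 0 to 9 with 1 mouse left out, lowest without Het_2 and highest without WT_4. No paired analysis was run because the labels do not give the litter of each mouse. Numbers with 3 digits occur only among the *Opa1*+/- mice, and what they stand for is not given. Depth limits *Oma1* most, with 122 to 160 counts per mouse.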
